A study of Mus musculus with 3 samples.

Results

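The cells described here are those that the study's authors assigned to alpha cells, in pancreatic islets of NOD/ShiLtJ mice, a strain that develops autoimmune diabetes spontaneously. All rows of the authors' alpha-cell table were taken, which are 186 genes of the 8237 that the deposited tables list in any islet cell type. The knockout group, IRE1α β-/-, held 2 mice labelled as lacking IRE1α in beta cells, and the control group was 1 IRE1α fl/fl mouse, in which the gene carries loxP sites. All 3 mice were 5 weeks old and, per the labels, had received tamoxifen (10 mg per ml in corn oil, injected on 5 consecutive days), a drug used to activate inducible Cre recombinases. The labels used here name neither the Cre driver nor the exons removed, and they claim no deletion in alpha cells. Islets were picked by hand and kept in culture overnight before the cells were separated and sequenced in droplets, where a unique molecular identifier (UMI) marks each captured transcript.

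Alpha cells make glucagon, the hormone that raises blood glucose when it falls, and they lie next to the insulin-secreting beta cells. Like beta cells they carry a large load of prohormone through the endoplasmic reticulum (ER), where signal peptides are cut off and chains are folded, and on into dense-core granules. IRE1α sits in the ER membrane, senses unfolded protein and, through its RNase domain, splices Xbp1 mRNA; the factor made from it drives genes of ER import and folding. The comparison asks how neighbouring endocrine cells of an islet differ when the labels place the deletion in beta cells.

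The values are mean UMIs per cell. The number of cells behind a column was worked out from its values, as the smallest number that turns them into whole UMIs, and came to 142 for the control, 304 for the first and 177 for the second knockout mouse. The knockout columns are numbered, but the number could not be tied to 1 of the samples; the mice are called the first and the second here. The listed genes summed to 2534, 2214 and 2271 UMIs per cell in the control, first and second knockout mouse. Most of that drop lay in the islet hormone genes, since without them the sums were 1637, 1609 and 1603. Genes of the mitochondrial genome made up 16.0%, 22.9% and 18.8% of the listed UMIs in the same order, and their part in the other differences was not tested. A ratio below is knockout over control in UMIs per cell, and the bracket behind it is its exact 95% interval, which covers counting error only and comes from the split of UMIs. With 1 control mouse there is no test of genotype, and the table is the authors' list of genes differing between these same cells, so counts and directions describe the table and nothing more.

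The label was checked against markers. Ppy (ENSMUSG00000017316, mm10 chromosome 11, 102099930 to 102101319), which encodes pancreatic polypeptide and defines the PP cell, had more UMIs per cell than any of the other listed genes: 427 in the control, 341 in the first and 323 in the second knockout mouse. In control beta cells of the authors' beta-cell table it had 8.88. Aplp1, an amyloid precursor-like membrane protein gene, had 10.3 UMIs per control cell here and 2.91 in control beta cells, and Resp18, a granule protein gene, had 63.6 against 21.9. Chga, the granule protein chromogranin A, had 31.6. None of 23 alpha-cell markers on the list used, among them Gcg, Irx2 and Ttr, was among the 186 genes, so their levels in these cells were not analysed here. Of 10 markers on the list of PP and epsilon cells, only Ppy was among the 186 genes. An endocrine identity is thus visible, whereas glucagon could not be checked. The leading hormone is that of PP cells, which rests on Ppy alone. The cells are therefore called alpha-table cells below.

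Among the 186 genes, those with lower values in the knockout mice were more numerous and differed by more. Both knockout mice lay below the control for 95 genes (51.1%) and above it for 69 (37.1%), and the remaining 22 were split. By a size rule of at least 1.5-fold in the mean of the knockout mice, 56 genes (30.1%) were lower and 20 (10.8%) higher, with a median log2 fold of -0.29. Counting intervals of both mice excluded a ratio of 1 on the same side for 84 lower (45.2%) and 47 higher genes (25.3%). Scaling each mouse to its listed total raised the median by 0.17 and gave 35 genes on each side, while scaling without the hormone genes raised it by 0.03. Gene groups are given below with both values where the scaling matters. A group's count is to be read against the share of all listed genes under the same rule: 30.1% and 10.8% for the size rule, 51.1% and 37.1% for both mice on 1 side, and 45.2% and 25.3% where both intervals must exclude 1, for lower and higher genes.

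**Figure D1:**
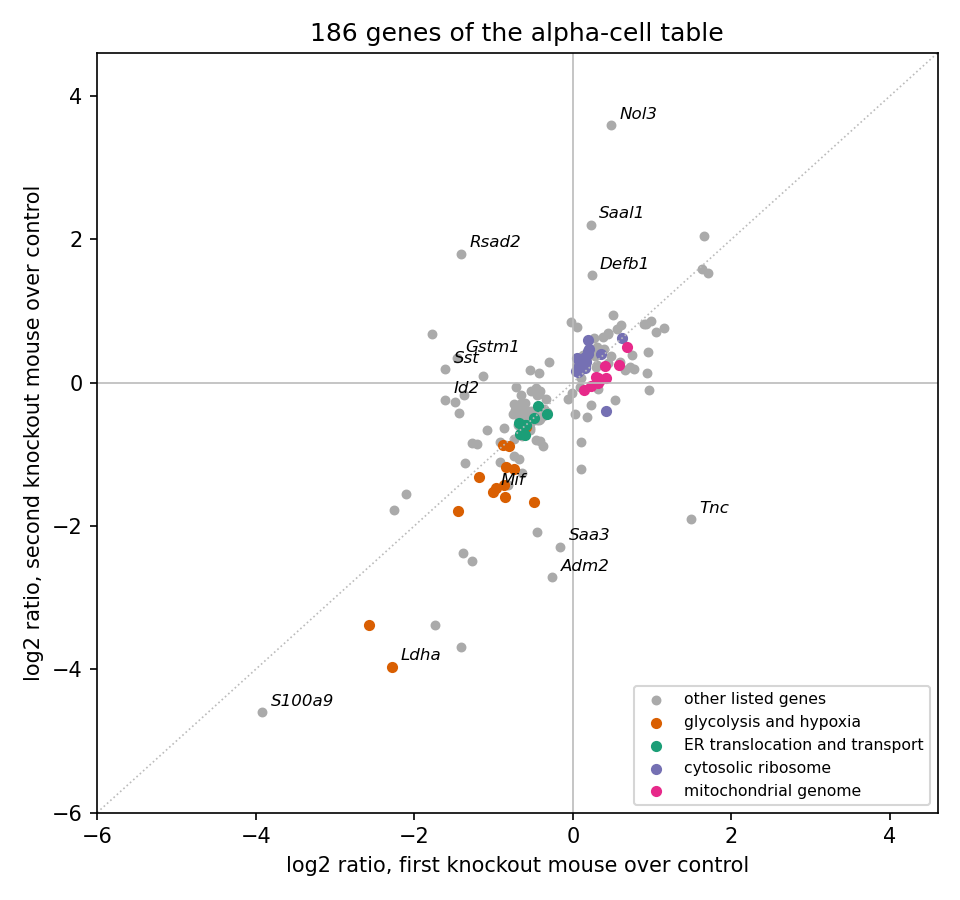
Each point is 1 of the 186 listed genes, placed by its log2 ratio to the control mouse in the first (x axis) and second (y axis) knockout mouse; a value of 0 UMIs is drawn at 3 UMIs over that mouse's cells. Glycolysis genes lie in the lower left in both mice, ribosomal genes sit a little above 0, and Rsad2, Sst and Gstm1 fall on opposite sides in the 2 mice; Tnc does so in the plot only because its control value of 0 is drawn at that floor.

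Glycolysis genes, which turn glucose into pyruvate and lactate, were lower in every case. Of 45 genes on the glycolysis and hypoxia list, 14 were in the table; all 14 lay below the control in both mice with intervals that excluded 1, and all 14 passed the 1.5-fold size rule (background 30.1%). Their median log2 fold was -1.15 beside -0.29 for all listed genes, and -0.97 after scaling to the listed total. Their summed level was 51.9 UMIs per control cell, 28.1 in the first and 23.9 in the second knockout mouse. In 13 of the 14 the second knockout mouse was the lower of the knockout pair.

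Taken along the pathway, glucose entry came first. Slc2a1, the glucose transporter GLUT1, had 0.514 UMIs per control cell, 0.283 in the first and 0.169 in the second knockout mouse. Pfkl, the liver-type phosphofructokinase that commits sugar to glycolysis, had 0.937, 0.668 and 0.294. The mice did not agree in size here, with ratios of 0.713 [0.570 to 0.894] and 0.314 [0.223 to 0.435].

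Aldolase A (Aldoa) splits the phosphorylated sugar, and it had 8.14 UMIs per control cell and 4.43 and 4.44 in the knockout mice. Tpi1, triosephosphate isomerase, had 4.38, 2.24 and 1.58. Both genes thus lay below the control in either mouse, and for Aldoa the knockout mice did not differ beyond counting error.

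In the later steps of glycolysis, Gapdh had 14.1 UMIs per control cell, 8.07 in the first and 7.66 in the second knockout mouse. The ATP-forming kinase gene Pgk1 had 2.30, 1.26 and 0.853, and the mutase gene Pgam1 had 3.25, 1.82 and 1.44. Enolase and pyruvate kinase close the pathway. Eno1 had 2.08, 0.921 and 0.836, a ratio of 0.442 [0.374 to 0.522] and 0.401 [0.327 to 0.490] in the first and second mouse. Pkm was the least reduced of the 14, at 4.07, 2.70 and 2.66.

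Lactate-handling genes, known for being kept low in beta cells, were lower in both knockout mice. Ldha, lactate dehydrogenase A, had 75 UMIs over all control cells (0.528 per cell) and 33 and 6 UMIs over the cells of the knockout mice (0.109 and 0.0339 per cell). Slc16a3, which exports lactate, had 25 UMIs in the control, 9 in the first knockout mouse and 0 in the second (0.176, 0.0296 and 0 per cell). The second mouse was at least 10.4-fold lower against a floor of 3 UMIs over its cells. With the counting error of the control included, the upper limit of that ratio was 0.128. Both genes had the lowest value in the second mouse.

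The mitophagy gene Bnip3 and Fam162a are known targets of hypoxia-inducible factors. Bnip3 had 1.56 UMIs per control cell, 0.572 and 0.452 in the knockout mice, and Fam162a had 0.937, 0.559 and 0.407. Mif, a cytokine gene with the same inducible factors among its regulators, had 8.94, 4.43 and 3.11. For all 3 genes the intervals of the knockout mice lay wholly below 1.

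**Figure D2:**
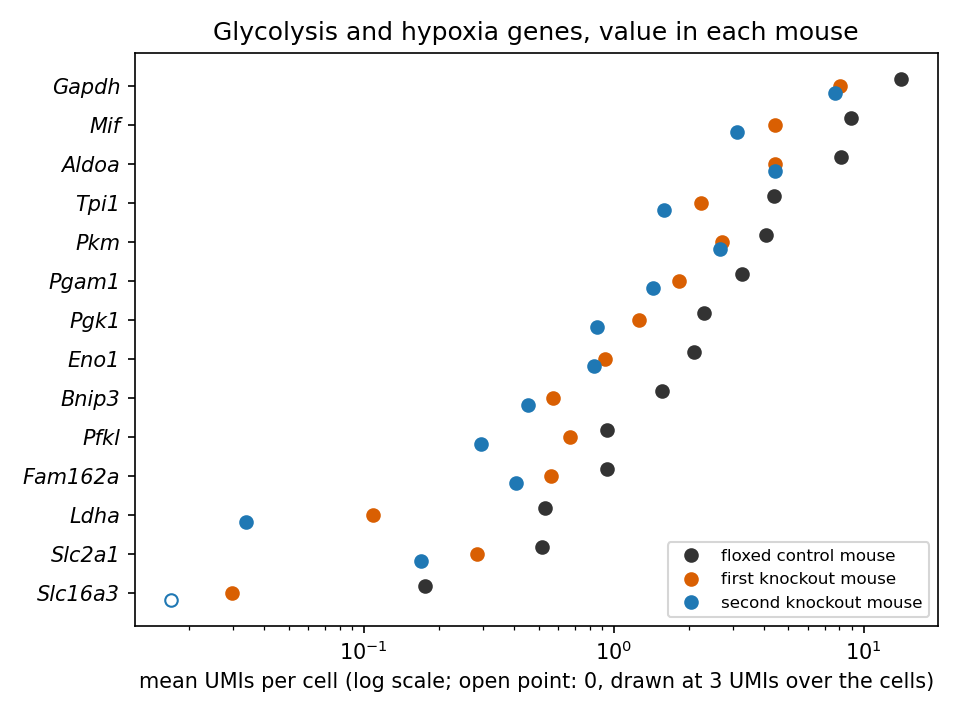
Mean UMIs per cell (log axis) of the 14 listed glycolysis and hypoxia genes in the control (black), first (orange) and second (blue) knockout mouse; the open point is Slc16a3 at 0 UMIs. In every row the control is the rightmost point.

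The sequences upstream of 4 of these genes show the letters that hypoxia-inducible factors are known to read. The motif searched was ACGTG or GCGTG on either strand, and its matches may overlap each other. RefSeq windows (GRCm38.p6) of 250 bases upstream of a start were found for 129 of the 186 genes, 174 windows in all. The motif was in 16 of 20 windows (80.0%) of the 14 genes, in 56.9% of the windows of all listed genes found, and in 38.6% of all 32851 windows of that length. Base composition was not matched. Windows of the same gene can overlap, as for Eno1 and Aldoa, so shared bases are counted more than once. The windows below run 5′ to 3′ along the gene's strand, with matches in capitals: Ldha (chr7:46845554-46845803, plus strand), Bnip3 (chr7:138909507-138909756, minus strand), Pgk1 (chrX:106186850-106187099, plus strand) and Slc2a1 (chr4:119108495-119108744, plus strand).
Ldha: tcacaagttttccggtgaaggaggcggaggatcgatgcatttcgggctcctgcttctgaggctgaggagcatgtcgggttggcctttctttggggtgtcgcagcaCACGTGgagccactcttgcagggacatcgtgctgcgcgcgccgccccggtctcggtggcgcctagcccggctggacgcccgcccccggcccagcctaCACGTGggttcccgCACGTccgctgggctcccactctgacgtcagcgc
Bnip3: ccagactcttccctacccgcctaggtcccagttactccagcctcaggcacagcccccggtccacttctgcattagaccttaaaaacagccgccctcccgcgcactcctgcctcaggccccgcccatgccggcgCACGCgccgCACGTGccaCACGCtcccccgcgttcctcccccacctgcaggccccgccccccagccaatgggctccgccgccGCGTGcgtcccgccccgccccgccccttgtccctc
Pgk1: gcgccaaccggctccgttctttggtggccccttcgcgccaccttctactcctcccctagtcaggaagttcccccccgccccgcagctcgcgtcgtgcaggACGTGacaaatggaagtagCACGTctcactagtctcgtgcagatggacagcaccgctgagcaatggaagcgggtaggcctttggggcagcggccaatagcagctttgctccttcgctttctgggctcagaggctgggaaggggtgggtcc
Slc2a1: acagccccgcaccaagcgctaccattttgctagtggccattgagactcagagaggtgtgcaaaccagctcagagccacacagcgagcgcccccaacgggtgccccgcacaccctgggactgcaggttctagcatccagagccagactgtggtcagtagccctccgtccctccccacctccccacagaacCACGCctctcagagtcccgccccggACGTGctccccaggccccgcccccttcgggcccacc
In the windows printed, Ldha and Bnip3 hold 5 matches each, and Pgk1 and Slc2a1 hold 2 each. A second Ldha window, not printed, holds 1. The windows of Mif and Tpi1, also not printed, hold 0. A match is a description of letters and not a bound site.

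Beyond glycolysis, genes of mitochondrial carbon metabolism did not go one way. Fh1, fumarase of the citric acid cycle, had 0.563 UMIs per control cell, 0.118 in the first and 0.164 in the second knockout mouse, ratios of 0.210 [0.138 to 0.315] and 0.291 [0.183 to 0.450]. Ak4, an adenylate kinase of the mitochondrial matrix, had 0.176, 0.0526 and 0.0169. Mdh1, the cytosolic malate dehydrogenase, was nearer the control at 1.66, 0.984 and 1.23. In the opposite direction, Ogdhl, which resembles the 2-oxoglutarate dehydrogenase of the cycle, had 8 UMIs over the control cells against 53 and 30, with ratios of 3.09 [1.46 to 7.54] and 3.01 [1.35 to 7.59]. The 4 measured nuclear genes of oxidative phosphorylation (Atp5c1, Atp5g1, Ndufa12 and Uqcrb) were lower in both mice. Their median log2 fold was -0.46 (-0.29 after scaling to the listed total), and none of them passed the size rule.

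Genes that bring proteins into the ER were lower in both knockout mice and by much the same amount in each. Of 65 genes on the ER translocation and early transport list, 8 were in the table, and all 8 lay below the control in both mice with intervals that excluded 1. Their median log2 fold was -0.59 (-0.41 after scaling to the listed total), and 5 of 8 passed the size rule (background 30.1%). After that scaling none of them passed, since the largest log2 fold, that of Ssr2, was -0.52. The summed level was 61.7 UMIs per control cell, 43.6 in the first and 43.4 in the second knockout mouse.

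Sec61b, a subunit of the channel through which chains enter the ER, had 14.7 UMIs per control cell, 11.8 in the first and 10.8 in the second knockout mouse. Ssr2 and Ssr4 belong to the translocon-associated complex beside it. Ssr2 had 7.39, 4.65 and 4.50, and Ssr4 had 12.4, 9.17 and 9.93. Signal peptides are cut off by the signal peptidase, whose subunit genes Spcs1 (4.68, 3.11 and 3.12) and Spcs2 (3.52, 2.31 and 2.11) were both lower. Sugars are attached by oligosaccharyltransferase, and its genes Dad1 (10.1, 6.69 and 6.77) and Ostc (4.43, 3.15 and 3.14) had all but equal values in the knockout pair. Cope, of the coat of vesicles that return to the ER, had 4.40, 2.76 and 2.98.

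Folding genes were few in the table, 3 of 44 on the list, and all lay below the control. Their median log2 fold was -0.60 (-0.42 after scaling to the listed total). Pdia6, a disulfide isomerase, had 3.79 UMIs per control cell, 2.43 and 2.37 in the knockout mice. Manf, a secreted factor induced by ER stress, had 7.11, 4.90 and 4.49, and Selenok, an ER selenoprotein, 7.10, 4.91 and 4.84. Rcn3, a calcium-binding ER protein gene outside the list, had 0.880, 0.467 and 0.497. Of 38 genes on the list of the IRE1-XBP1 branch, 7 were in the table and 7 were lower, all of them also members of the ER lists. Their median log2 fold was -0.59 (-0.41 after scaling to the listed total). The size rule was passed by 4 of the 7 before that scaling and by none after it, Ssr2 being the largest at -0.52. Ern1, which encodes IRE1α, and Xbp1 were not among the 186 genes and were not analysed here.

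The promoter of Pdia6 is shown because it holds several copies of CCACG, one end of the ER stress response element. This motif (either strand) was in 28.3% of all 32851 RefSeq windows, in 31.0% of the windows of the listed genes, in 2 of 6 windows of the ER import genes and in 2 of 2 of the folding genes found. It overlaps with the hypoxia motif above wherever its last bases are followed by T or C. The window is chr12:17266339-17266588 (GRCm38.p6, plus strand), with the 4 matches in capitals.
Pdia6: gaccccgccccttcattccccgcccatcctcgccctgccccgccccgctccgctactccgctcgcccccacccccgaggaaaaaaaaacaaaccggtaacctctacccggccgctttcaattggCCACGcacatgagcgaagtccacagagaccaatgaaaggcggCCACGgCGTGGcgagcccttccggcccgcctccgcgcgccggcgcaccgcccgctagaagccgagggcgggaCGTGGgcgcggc

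**Figure D3:**
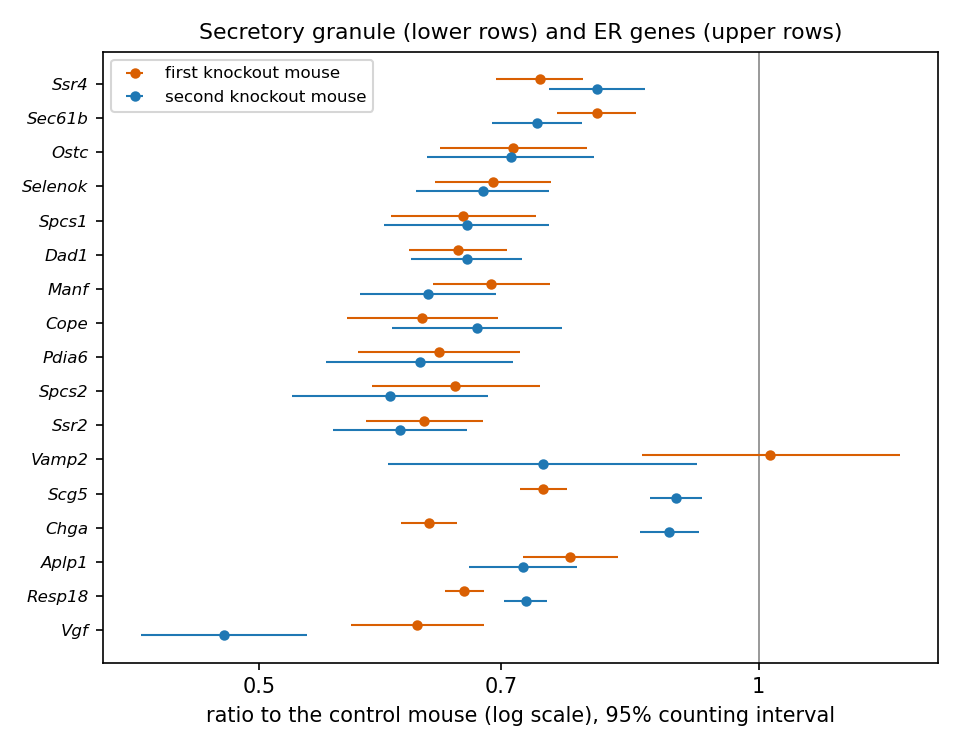
Ratio of each knockout mouse to the control mouse (log axis) with its 95% counting interval, for 6 secretory granule genes (lower rows) and 11 ER genes (upper rows). All ER genes lie left of 1 in both mice; Vamp2 of the first mouse is the 1 point to the right of 1.

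Granule genes were lower by less, and the knockout mice differed from each other. Of 41 granule genes, 6 were in the table: Aplp1, Chga, Resp18, Scg5 and Vgf were lower in both mice, and Vamp2 was split. The median log2 fold was -0.41 (-0.24 after scaling to the listed total), and only Vgf passed the size rule. Chga had 31.6 UMIs per control cell, 20.0 in the first and 28.0 in the second knockout mouse, with ratios of 0.633 [0.609 to 0.658] and 0.884 [0.849 to 0.920]. The gene of the prohormone convertase chaperone, Scg5, followed the same order at 40.6, 30.1 and 36.2. Vgf, a granule peptide precursor, had the reverse order at 5.65, 3.52 and 2.69. Resp18 had 63.6, 42.3 and 46.1, and Aplp1 10.3, 7.90 and 7.40. Vamp2, a fusion SNARE of granules, had 1.30, 1.32 and 0.960, so the first knockout mouse was level with the control.

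Hormone transcripts were lower in the mean for all 5 that were listed, and the first knockout mouse had the lowest Ins1, Iapp and Sst. Ppy had a ratio of 0.799 [0.791 to 0.807] and 0.756 [0.747 to 0.764] in the first and second mouse. Iapp, the amylin gene, had 126 UMIs per control cell and 54.7 and 69.6 in the knockout mice. Ins2 had 214, 160 and 151. Ins1 had 93.6, 36.0 and 83.1, so that the knockout mice differed from each other by a ratio of 2.30 [2.25 to 2.36]. The somatostatin gene Sst, which defines delta cells, had 36.8, 12.1 and 42.0, on both sides of the control.

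Beta-cell and delta-cell transcripts differed between the knockout mice, but not all in the same order. Ins1, Iapp, Sst and Rbp4 were lower in the first knockout mouse than in the second, and Ins2 was lower in the second. The 3 of 16 beta-cell markers that were listed summed to 434, 251 and 304 UMIs per cell, and Sst and Rbp4, the 2 of 11 delta-cell markers listed, summed to 52.5, 19.5 and 51.9. The Ins1 level was 43.7%, 22.5% and 54.9% of the Ins2 level in the alpha-table cells of the control, first and second knockout mouse, against 51.6% in control and 35.9% in pooled knockout beta cells. Alpha-table cells of the control held 1.36% of the Ins1, 1.60% of the Ins2 and 7.06% of the Iapp level of control beta cells. Control delta cells had 1825 Iapp UMIs per cell and control beta cells 1781, so Iapp did not set beta cells apart from delta cells. What part RNA from other cells has in these values was not tested. Rbp4, a retinol carrier gene that is abundant in delta cells, had 15.7, 7.43 and 9.90 UMIs per alpha-table cell, and 137, 84.2 and 69.1 in delta cells of the same mice.

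Ribosomal protein genes were slightly higher, and more so in the second knockout mouse. All 21 listed members were higher in the mean, 20 of them in both mice, with a median log2 fold of 0.19 (0.36 after scaling to the listed total), beside 37.1% of all listed genes that were higher in both. Just 1, Rps12-ps3, passed the size rule (background 10.8%). Rps27 had 26.7 UMIs per control cell, 30.7 in the first and 37.1 in the second knockout mouse, and Rps29 had 31.9, 36.3 and 41.9. The lowest ratios in the group were those of Rpl17, Rpl35a and Rps15, the last at 25.0, 26.2 and 27.6. In 20 of 21 cases the second mouse was the higher of the knockout pair, the exception being Rpl17. Several listed genes are copies of ribosomal protein genes (Rps27rt, Rpl27-ps3, Rps12-ps3), whose reads may be shared with the parent gene by the counting. Rps27rt had 3.75, 4.28 and 5.64.

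The mitochondrial genome went the other way between the knockout mice. Its 11 listed genes encode subunits of the respiratory chain; all were higher in the mean and all 11 were higher in the first than in the second knockout mouse. The median log2 fold was 0.32 in the first and 0.06 in the second mouse, and 8 of 11 lay above the control in both. mt-Co1, of cytochrome c oxidase, had 64.1 UMIs per control cell, 84.9 and 75.7 in the knockout mice. mt-Nd3, of complex I, was the 1 member past the size rule, at 5.39, 8.68 and 7.63. The cytochrome c oxidase gene mt-Co3 had 87.8, 109.7 and 91.2 and the ATP synthase gene mt-Atp6 had 71.3, 88.6 and 74.5, with the second mouse close to the control in each. mt-Nd1 had 54.3, 63.7 and 52.6, so the second mouse lay just below the control. A high mitochondrial share is also a common mark of stressed or leaky cells in droplet data, and whether it had a part here was not tested.

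**Figure D4:**
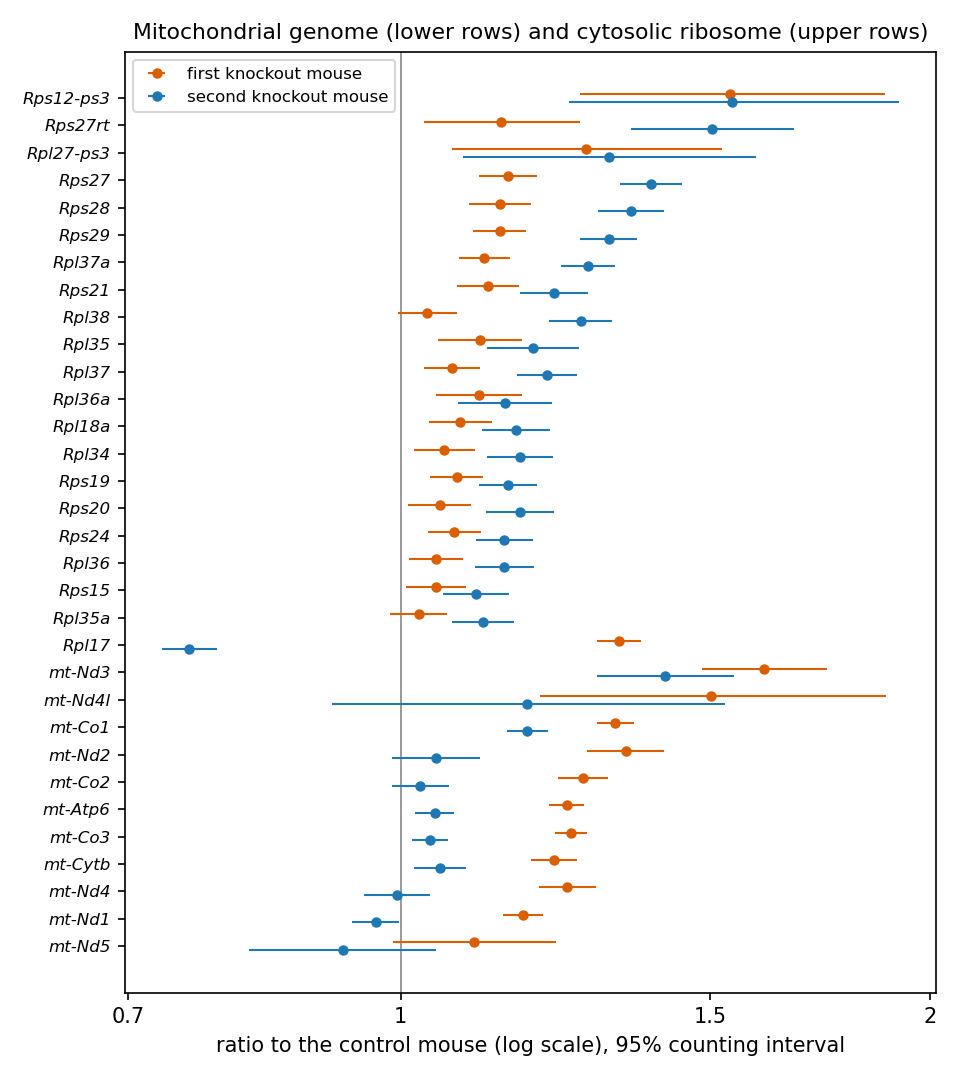
Ratio of each knockout mouse to the control (log axis) with its 95% counting interval, for 11 genes of the mitochondrial genome (lower rows) and 21 ribosomal protein genes or copies (upper rows). Orange points (first mouse) lie right of blue for mitochondrial genes and left of blue for ribosomal genes other than Rpl17.

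The listed genes of protein turnover were lower, and those of redox defence were not all on 1 side. The 4 listed proteasome and ubiquitin genes, Psma2, Psmb2, Psme2 and Ubb, lay below the control in both mice, as did 51.1% of all listed genes. Their median log2 fold was -0.52 (-0.34 after scaling to the listed total). None of the 4 passed the size rule, and in all 4 the first mouse was the lower. Ubb, a ubiquitin gene, had 22.3 UMIs per control cell, 14.8 and 17.2 in the knockout mice. Pomp, the proteasome assembly factor outside that list, had 5.07, 3.42 and 3.65. Of the lysosomal genes, Ctsl, the protease cathepsin L, had 20.1, 12.1 and 11.7, and Ctsz, cathepsin Z, 8.27, 6.01 and 4.76. Cst3, an inhibitor of such proteases, was nearer the control at 30.2, 22.6 and 27.8. Of the 3 listed redox genes, none passed the size rule. The peroxiredoxin gene Prdx1 had 6.33, 4.17 and 5.18. Gstm1, a glutathione transferase gene, was split at 0.352, 0.128 and 0.446, but the interval of the second mouse, 1.27 [0.878 to 1.84], included 1. Gstp1, a related transferase gene outside that list, had 1.46, 0.572 and 0.672. Ftl1, ferritin light chain, had 30.6, 22.4 and 21.3.

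Regulators gave a mixed picture. Id1, Id2 and Id3, inhibitors of basic helix-loop-helix factors and textbook targets of BMP signalling, were low mainly in the first knockout mouse. Id3 had 3.61 UMIs per control cell, 1.34 and 2.69 in the knockout mice, Id1 had 2.50, 0.891 and 2.08, and Id2 had 1.35, 0.441 and 1.14. For Id2 the interval of the second mouse included 1 (0.848 [0.693 to 1.04]). Cebpb, a factor of stress and acute-phase responses, was low in both at 3.11, 1.64 and 1.44, as was Klf4 at 0.676, 0.434 and 0.282. Rgs2, which dampens G protein signalling, had 0.648, 0.151 and 0.220. The immediate early gene Egr1 was higher, at 3.27, 4.94 and 3.99, while the constitutive chaperone Hspa8 was lower, at 11.8, 8.08 and 8.18. Myt1, a zinc finger factor of endocrine development, had only 8 UMIs over the control cells against 54 and 41, ratios of 3.15 [1.49 to 7.67] and 4.11 [1.90 to 10.2].

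Inflammatory genes did not share a direction. S100a9, a calgranulin gene known from neutrophils, had the lowest ratio of all listed genes: 155 UMIs over the control cells against 22 and 8, which is 1.09, 0.0724 and 0.0452 per cell. It was the 1 listed gene of 27 immune-cell markers, so no other such marker could be set beside it. Serpina3n, an acute-phase protease inhibitor, was higher in both mice at 2.72, 4.14 and 4.76, and so was Sbno2, a target of STAT3, at 1.11, 2.10 and 1.95. Saa3, serum amyloid A3, had 1.02, 0.914 and 0.209, low only in the second mouse. The antiviral gene Rsad2 had 0.183, 0.0691 and 0.638, on either side of the control. Its place among the 20 genes past the size rule rests on the second mouse.

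Several genes known from epithelia were in the table and went both ways. Epcam, Cldn7, Spint1 and Tjp3 belong to no list used here and were picked by name. Krt8 and Igfbp7 were list members, and Igfbp7 and Defb1 were named by the fold rule. Epcam, the epithelial adhesion molecule, had 4.55 UMIs per control cell, 2.86 and 3.71 in the knockout mice, and the claudin gene Cldn7 2.69, 1.61 and 2.19. The keratin gene Krt8, the 1 listed member of the acinar and duct markers, had 3.42, 2.50 and 3.05, and the interval of its second mouse included 1. Spint1, an epithelial protease inhibitor, was higher at 1.95, 2.66 and 3.15, and the tight-junction gene Tjp3 was higher at 0.169, 0.283 and 0.220, with an interval that included 1 in the second mouse. Igfbp7, a secreted binding protein listed with endothelial and mesenchymal markers, had 9.74, 5.36 and 6.27. Defb1, a defensin gene, had the highest ratio among genes at or above the median level, at 4.30, 5.06 and 12.1, and this came from the second mouse.

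The knockout mice differed from each other for many genes, although they share a genotype label. The counting interval of the second over the first mouse excluded 1 for 65 genes that were higher and 55 that were lower in the second, and included it for 66. For 54 of the 186 genes the knockout mice differed more from each other, on the log2 scale, than their mean differed from the control. The median over all genes was 0.01, so there was no general shift between them. Among genes at or above the median level, Sst differed most, by a ratio of 3.49 [3.35 to 3.63], followed by Defb1 at 2.40 [2.24 to 2.56] and Ins1.

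Angiogenin (Ang) and Rnase4, secreted ribonuclease genes, differed together. Ang had 2.97 UMIs per control cell, 2.93 in the first and 5.35 in the second knockout mouse, and Rnase4 had 5.47, 5.67 and 9.38. In each the first mouse was level with the control, and the second over the first was 1.83 [1.66 to 2.00] for Ang and 1.66 [1.55 to 1.77] for Rnase4. RefSeq gives both genes the same upstream window, chr14:51090827-51091076 (GRCm38.p6, plus strand), printed here because it is shared letter for letter.
Ang and Rnase4: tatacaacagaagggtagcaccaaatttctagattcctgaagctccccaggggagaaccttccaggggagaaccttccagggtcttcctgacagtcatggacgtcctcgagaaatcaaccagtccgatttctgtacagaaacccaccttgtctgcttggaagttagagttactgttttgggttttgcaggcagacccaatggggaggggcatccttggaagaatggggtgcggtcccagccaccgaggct
Rnase4 has a further start at chr14:51095750-51095999, which is not printed.

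Rsad2 and Ifit2, genes induced by interferon, were higher in the second knockout mouse than in the first. Rsad2 gave a ratio between them of 9.24 [5.77 to 15.5] and Ifit2 of 5.50 [1.92 to 19.2], the latter from 5 and 16 UMIs. Ddx60, an antiviral helicase gene, had 0.0822 and 0.136 UMIs per cell in the pair, a ratio of 1.65 [0.902 to 3.01] that included 1, as did its intervals against the control. These 3 genes were set side by side after their values were seen.

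**Figure D5:**
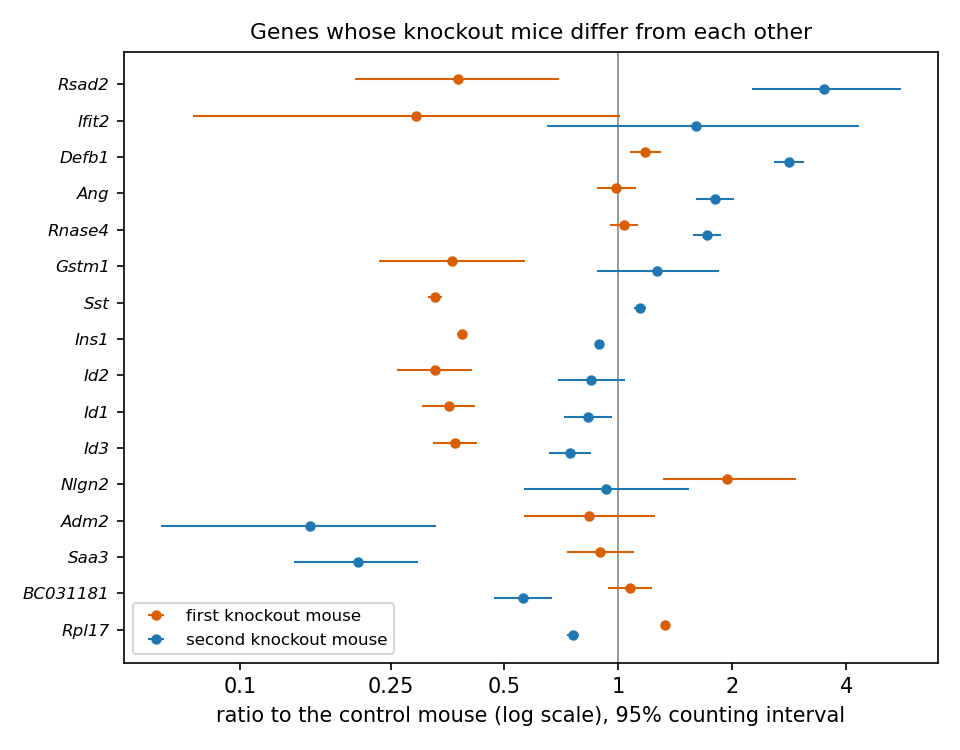
Ratio of each knockout mouse to the control (log axis) with its 95% counting interval, for 16 genes chosen because the knockout mice differ; the control is the line at 1. The 3 Id genes, Ins1, Sst and Gstm1 are low in the first mouse (orange), while Saa3, Adm2, Rpl17 and BC031181 are low in the second (blue).

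Rpl17 and BC031181 shared one split across the mice, and they are neighbours in the genome. In GENCODE M21 (mm10, chromosome 18, plus strand) Rpl17 spans 74998558 to 75003381 and BC031181 spans 75005868 to 75010152. Rpl17, a protein of the large ribosomal subunit, had 44.0 UMIs per control cell, 58.5 in the first and 33.3 in the second knockout mouse. BC031181 had 2.23, 2.38 and 1.25. In delta cells of the same mice the order was the same: Rpl17 had 39.0, 53.9 and 25.3, and BC031181 had 3.60, 4.31 and 1.68. The second over the first mouse was 0.570 [0.553 to 0.587] and 0.524 [0.448 to 0.609] in alpha-table cells, and 0.469 [0.446 to 0.493] and 0.390 [0.320 to 0.471] in delta cells. The mean of the knockout mice hides this, since Rpl17 had a mean ratio of 1.04.

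Of the 186 genes, 162 (87.1%) were also in the beta-cell table, which lists 8193 of the 8237 genes (99.5%). The delta-cell table, which lists 231 of the 8237 genes (2.80%), shared 68 genes. These are 36.6% of the alpha-cell table and 29.4% of the delta-cell table. In neither of the other tables were 20 genes. The mice are shared between the tables, so each set of values stands on its own. Those of the glycolysis and ER import genes that the beta-cell or delta-cell table also lists were lower there too. Not all were listed: Aldoa was absent for beta cells, and Pgk1 and Sec61b, among others, for delta cells. Pkm was the least reduced of them in beta cells, with a ratio of 0.926 [0.887 to 0.966]. Ldha had 0.490 UMIs per control and 0.0883 per pooled knockout beta cell, and 2.05, 0.601 and 0.385 in delta cells. Ssr2 had 5.17 and 3.06 in beta cells, and 9.41, 6.51 and 5.08 in delta cells.

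Other genes lay on the other side of their control in beta cells. Ppy went from 8.88 to 65.3 UMIs per cell there, a ratio of 7.36 [7.18 to 7.54], against the lower values in alpha-table cells. Gstp1 had 0.537 and 1.22 UMIs per control and knockout beta cell, Ctsl 7.64 and 12.3, and Cldn4, a claudin gene, 1.38 and 5.96. Cldn4 in alpha-table cells had 3.69, 2.68 and 3.50, and the interval of the second mouse, 0.949 [0.844 to 1.07], included 1. Serpina3n was higher in both mice in alpha-table cells and in delta cells (0.238, 1.86 and 1.51). In beta cells Serpina3n had 5.05 and 4.84, a ratio of 0.958 [0.917 to 1.001] whose interval included 1. The glucagon gene Gcg was listed for beta cells, at 43.6 and 100.4 UMIs per control and knockout cell, and for delta cells, at 10.0, 159 and 63.5. The difference between cell types was not tested.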

How the data were processed

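The authors deposited, for each islet cell type, a table of the mean UMIs per cell and gene, a signal that is a sum of UMI counts divided by a number of cells and is not scaled for depth. The submitters' processing notes name Cell Ranger 3.0.0 and the mm10 build; how cells were filtered, clustered and named, whether doublets were removed, and how genes were chosen for a table, is not given in the sources used here. Doublets could not be called here from means over cells. The tables' p, q and fold columns were not used. Cell numbers were inferred, as the smallest number whose product with a column's values is whole (within 0.001), which held for 100% of the alpha-table values and gave the UMIs behind each; a multiple of that number would be whole too and would narrow the intervals.

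From these, ratios to the control were computed with exact Clopper-Pearson 95% intervals on the split of UMIs. They were run on simulated counts without extra spread between cells, which is the case the interval assumes. Such intervals cover counting error only, since cells of 1 mouse are not replicates, and no p-value was computed. A floor of 3 UMIs replaced a count of 0 where a bound is given. A fold of 1.5 in the unweighted mean of the knockout mice served as size rule. Python 3.11.15, pandas 2.3.3, scipy 1.17.1 and matplotlib 3.10.9 were used. Positions came from GENCODE M21, promoter windows from RefSeq, matched by symbol.

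The members and the 26 gene lists were chosen with earlier results of these data known. Any row could be named; described by rule were the 10 highest and 10 lowest folds and the 10 largest differences between knockout mice among genes reaching the table's median level, the 10 genes with most UMIs, and list members. The lists cover alpha, PP, beta, delta, acinar and duct, endothelial, immune and erythroid markers (no alpha or erythroid marker was in the table), glycolysis, ER, granule, hormone, ribosome, mitochondrial, proteasome, lysosome, redox, early-response, interferon, translation and cytoskeleton genes. Alternatives were scaling, a pseudocount, weighting by cells, a fold of 2, a fold in each mouse, a level minimum, centring, and leaving out each knockout mouse.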

Additional observations from a re-analysis of the deposited data

Results flagged for a closer look

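Ctsz and Hist1h4i drew attention because every knockout mouse lay on 1 side of the control in alpha-table cells and on the other side in delta cells. Ctsz, the cathepsin Z gene, had a mean ratio of 0.650 in alpha-table cells (8.27 UMIs per control cell, 6.01 and 4.76 in the knockout mice) and of 1.44 in delta cells (1.42, 2.34 and 1.73), where the interval of the second mouse, 1.22 [0.959 to 1.56], included 1. In beta cells it had 1.09 UMIs per control and 2.60 per pooled knockout cell. Hist1h4i, a histone H4 gene, had a mean ratio of 0.948 in alpha-table cells (0.338, 0.336 and 0.305), where both counting intervals included 1, and of 2.36 in delta cells (0.267, 0.746 and 0.513). The difference between cell types was not tested, and the same 3 mice gave all of these values.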

How the results depend on the processing

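At least 1.5-fold higher were 20 genes and lower 56. Scaling to the listed total gave 35 higher and 35 lower and a median log2 fold of -0.12 in place of -0.29, and centring on the median gave 47 and 26, so the balance of higher and lower genes depends on the scaling. A pseudocount of 0.180 (the 10th percentile) left 10 higher genes, a fold of 2 left 5 higher and 22 lower, the fold in each knockout mouse left 10 higher, and genes reaching the median level gave 3 higher and 20 lower. Scaling without hormone genes (23 and 48) and weighting by cells (22 and 55) stayed within 1.5 times. Leaving out 1 knockout mouse gave 21 to 24 higher and 50 to 64 lower genes, with medians of -0.37 to -0.23; 15 genes changed sign without the first mouse and 8 without the second, the 15 including Tnc, which turns only because the floor set for its control lies above the 1 UMI of the second mouse. Rpl17, Sst and mt-Nd1 were among the former and Ang among the latter. Both knockout mice lay on 1 side for 164 genes and, with either scaling, 165; the scaling without hormone genes was added here after seeing the data. Of genes past the size rule, 1 changed sign without the second mouse (Rsad2, higher in the mean but 0.0691 UMIs per cell in the first mouse against 0.183 in the control). The medians of the 15 gene lists checked kept their sign under the scalings, the pseudocount, the weighting and without either mouse. Their sizes held less well, where a move means at least the standard deviation of the knockout pair. Scaling to the listed total moved 7 of the 15 medians and 14 of 32 single genes checked. Leaving out the first mouse moved 2 medians, and leaving out the second moved 4. A planned count model on the recovered UMIs was not run. No paired analysis was possible because the knockout columns carry no pairing and there was 1 control mouse. Genes under 10 UMIs, such as Ogdhl in the control, have wide counting intervals, and a single control mouse limits every value.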

Other observations

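Noncoding transcripts in the table gave further values. Gm26917, Gm42418 and AY036118, which lie together on chromosome 17 in GENCODE M21 and are known to collect reads of ribosomal RNA, had 1.23, 5.01 and 1.10 UMIs per control cell, 2.37, 6.23 and 1.53 in the first knockout mouse and 1.64, 4.70 and 1.42 in the second. Lars2, a mitochondrial leucyl-tRNA synthetase gene that can collect such reads too, had 0.317, 0.704 and 0.537. In all 4 the first knockout mouse was the highest, the mouse that also had the highest mitochondrial share. Xist had 19.3, 20.6 and 18.6. Gm15283 had 31 UMIs in the control, 25 in the first and 0 in the second knockout mouse (0.218, 0.0822 and 0 per cell). The first mouse had a ratio of 0.377 [0.213 to 0.659]. The second was at least 12.9-fold lower against a floor of 3 UMIs. Its ratio had an upper limit of 0.101 once the control's counting error is included.

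Some listed genes did not stand apart from the control by counting error. For 11 of the 186, neither mouse's interval excluded 1, among them Nfkb1 (1.37, 1.31 and 1.16), Csf1 (1.01, 1.18 and 0.808) and Hist1h4i.

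Tnc, the matrix protein tenascin C, had 0 UMIs in the control, 18 in the first and 1 in the second knockout mouse. Taking 3 UMIs in all control cells as the floor, the first mouse was at least 2.80-fold higher, and the lower limit of its counting interval was 2.05. Saal1, Saa3 and Ldha lie close together on chromosome 7. Saal1 had 4, 10 and 23 UMIs in the control, first and second knockout mouse, or 0.0282, 0.0329 and 0.130 per cell. Saa3 and Ldha instead had their lowest value in the second mouse. Tubulin genes were lower in both mice, Tubb5 at 3.97, 2.62 and 2.45 and Tuba4a at 2.84, 1.82 and 1.69. Wdr89 had 3.20, 3.96 and 4.53 and Gm10073 had 5.63, 7.08 and 7.40.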
